A study of Homo sapiens with 12 samples.

Results

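The 10 genes described here encode 3 receptor systems at the cell surface and their ligands: *KITLG* and its receptor *KIT*, the fibroblast growth factors *FGF2* and *FGF5* with the receptors *FGFR1*, *FGFR2*, *FGFR3* and *FGFR4*, and *MET* with its ligand *HGF*. They were taken by gene name from a table of 57187 genes, which held all 10, and were followed across 12 libraries. The libraries came from 4 human cancer cell lines. Of these, OVCAR8 (written OVAR-8 in the sample labels) and SKOV3 (written SKOV-3) are from ovarian cancer, and HCC1954 and MDA-MB-231 from breast cancer. For every line there was 1 library of parental cells, labelled as having no treatment, 1 of cells transfected with *SIVA-WT* and 1 of cells transfected with *SIVA-D160N*. The latter form of *SIVA* has an amino acid change, found in a breast tumor. The study's supplement also calls the parental libraries EV, for empty vector, and which of these names is right could not be settled from the labels. The vectors drove *SIVA* from a CMV promoter and were selected with hygromycin as mixed populations, and all cells were grown in RPMI-1640 with serum. If the parental cells had no vector, an effect of transfection and selection cannot be told apart from one of *SIVA* itself. The sequencing was an exploratory search for signaling pathways that lie downstream of *SIVA-D160N*.

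KIT, the FGF receptors and MET are receptor tyrosine kinases. A ligand brings receptor molecules together, the kinase domains phosphorylate each other, and adaptors such as FRS2, GRB2 and GAB1 pass the signal to the RAS-ERK and PI3K pathways. ERK in turn raises transcription of inhibitors such as the Sprouty proteins and DUSP6, which dampen the pathway. KITLG (stem cell factor) is known for its roles in blood, pigment and germ cells, FGF2 and FGF5 are heparin-binding growth factors, and HGF is made mostly by stromal cells and drives scattering and motility of epithelial cells that carry MET. *KITLG*, *KIT* and *FGF5* stand in a pathway list of the study. It was drawn from genes that the study called different between *SIVA-D160N* and control cells in these same libraries. The direction of these genes here is thus not independent evidence. The study treats its pathway findings as exploratory, because the gene set analysis was not significant.

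Total counts ran from 35791455 to 45890398 per library. At this depth a gene without a count is limited to 0.0664 to 0.0856 CPM (a count divided by the TMM-adjusted library size and scaled to 1000000), taking 3 counts as the limit, which covers counting error only. *SIVA1*, the gene in the vectors, stood at 28.1, 80.7 and 68.2 CPM in parental, *SIVA-WT* and *SIVA-D160N* cells of MDA-MB-231, at 66.3, 177 and 161 CPM in OVCAR8 and at 52.6, 106 and 112 CPM in SKOV3. In HCC1954 it stood at 0, 38.2 and 26.5 CPM. The HCC1954 library labelled parental thus had no count of *SIVA1*, unlike the other 3 parental libraries, and the fold changes of the tested genes against parental cells are also given without HCC1954. A blot in the supplement has a lane labelled as HCC1954 with *SIVA* knockout, a word the study also uses for its shRNA knockdown in MDA-MB-231. Whether the library came from such cells could not be settled from the labels, so that the parental values of HCC1954 are those of the library labelled parental. *ERBB2*, the HER2 gene, averaged 7550 CPM in HCC1954 and 9000 CPM in SKOV3 against 34.6 CPM in MDA-MB-231 and 74.1 CPM in OVCAR8. *PAX8*, a factor of the Mullerian lineage, averaged 68.3 CPM in OVCAR8 and 239 CPM in SKOV3, and the breast lineage gene *GATA3* averaged 46.6 CPM in HCC1954 but 2.19 CPM in MDA-MB-231, below the 5.96 CPM of OVCAR8. *WT1*, another ovarian lineage marker, averaged 6.65 CPM in HCC1954, 6.41 CPM in OVCAR8 and 0.726 CPM in SKOV3, and the lineage genes *EMX2* and *TFAP2B* had at most 15 and 5 counts in any library. The lineage markers thus followed the tissue labels only in part. Of 6 markers of other cells, leukocyte *PTPRC*, fibroblast *DCN* and mast cell *TPSAB1* had at most 27, 15 and 2 counts in any library. The collagen gene *COL1A1* averaged 261 CPM in OVCAR8 and 312 CPM in SKOV3, *COL1A2* averaged 21.7 CPM in SKOV3, and endothelial *PECAM1* averaged 51.8 CPM in HCC1954. Their part in the results was not tested.

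The promoters of *KITLG*, *KIT* and *FGF5* are shown because these 3 genes stand in the pathway list drawn from these libraries. Each is the 250 bases before the gene's start, from RefSeq on GRCh38.p14, written 5′ to 3′ on the gene's strand. Capitals mark a TATA box (TATAAA) or a GC box (GGGCGG, or CCGCCC for the other strand).
KITLG promoter, chr12:88580472-88580721, minus strand: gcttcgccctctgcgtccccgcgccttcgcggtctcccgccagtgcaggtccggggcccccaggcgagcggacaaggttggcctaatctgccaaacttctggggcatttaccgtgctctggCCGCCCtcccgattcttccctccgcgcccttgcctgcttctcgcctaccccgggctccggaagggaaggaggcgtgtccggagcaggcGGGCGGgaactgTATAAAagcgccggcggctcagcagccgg
KIT promoter, chr4:54657707-54657956, plus strand: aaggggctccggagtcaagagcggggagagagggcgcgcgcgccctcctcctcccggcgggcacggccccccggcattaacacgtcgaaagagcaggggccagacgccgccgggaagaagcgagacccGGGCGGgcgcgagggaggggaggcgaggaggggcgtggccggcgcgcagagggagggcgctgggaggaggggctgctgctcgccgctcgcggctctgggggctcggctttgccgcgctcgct
FGF5 promoter, chr4:80266338-80266587, plus strand: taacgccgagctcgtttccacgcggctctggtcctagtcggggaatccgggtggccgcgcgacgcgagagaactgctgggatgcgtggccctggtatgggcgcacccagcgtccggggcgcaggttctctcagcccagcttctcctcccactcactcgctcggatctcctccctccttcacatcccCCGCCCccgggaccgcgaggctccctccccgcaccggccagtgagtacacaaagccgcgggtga

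The *KITLG* window held 1 TATA box and 2 GC boxes, and the *KIT* and *FGF5* windows held 1 GC box each and no TATA box. Of 35116 RefSeq windows of the same length, searched on both strands, 10.7% held TATAAA and 42.6% held GGGCGG. None of the 3 windows held a CCAAT box (CCAAT), an AP-1 site (TGANTCA) or an E-box (CACGTG), which were present in 32%, 6.57% and 6.34% of all windows. All were rich in CG steps, with 26 in *KITLG*, 34 in *KIT* and 27 in *FGF5* against a median of 11. These matches describe the sequence only.

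*KITLG* (ENSG00000049130, chromosome 12, 88492793 to 88580471 on GRCh38) was expressed in all 12 libraries, and in each line both transfectants stood above the parental cells. In MDA-MB-231 its level was 1.75, 3.54 and 4.18 CPM in parental, *SIVA-WT* and *SIVA-D160N* cells. In OVCAR8 the same conditions gave 4.19, 7.6 and 10.5 CPM. SKOV3 gave 34.6, 56 and 62.8 CPM. HCC1954, with 80.5, 109 and 90.5 CPM, had its highest value in *SIVA-WT*, while the other 3 lines had theirs in *SIVA-D160N*. The lines differed more than the conditions did: the 3 libraries averaged 93.3 ± 14.4 CPM in HCC1954, 51.1 ± 14.7 CPM in SKOV3, 7.44 ± 3.16 CPM in OVCAR8 and 3.15 ± 1.26 CPM in MDA-MB-231 (SD, n = 3 libraries per line). The ranges of the lines did not overlap, although the parental OVCAR8 library (4.19 CPM) was next to the *SIVA-D160N* library of MDA-MB-231 (4.18 CPM). An exon of *KITLG* overlaps ENSG00000281333 on the opposite strand, whose counts were not read.

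*KIT* (ENSG00000157404, chromosome 4, 54657957 to 54740715) was measured well only in SKOV3. There it had 678 counts (18 CPM) in parental, 1519 counts (34 CPM) in *SIVA-WT* and 2362 counts (58.2 CPM) in *SIVA-D160N* cells. MDA-MB-231 had no count in any of its 3 libraries, OVCAR8 had 4 counts, all in *SIVA-D160N*, and HCC1954 had 4, 2 and 1 counts. SKOV3 was thus at least 1560-fold higher than MDA-MB-231, with the limit of 3 counts taken over the 3 libraries of MDA-MB-231 together. In SKOV3 the ligand and the receptor had the same order of conditions. The *SIVA-D160N* library was 1.82-fold above the parental one for *KITLG* and 3.24-fold above it for *KIT* (counting intervals 1.7 to 1.94 and 2.97 to 3.53, 1 library against 1). HCC1954, the line with the most *KITLG*, had 7 *KIT* counts in total.

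*FGF2* (ENSG00000138685, chromosome 4, 122826682 to 122898236) was a gene of the ovarian lines. OVCAR8 had 144, 162 and 180 CPM in parental, *SIVA-WT* and *SIVA-D160N* cells. SKOV3 had 119, 141 and 184 CPM. MDA-MB-231 had 3 counts over its 3 libraries and HCC1954 had 6. The ratio of OVCAR8 to MDA-MB-231 was 6810 with a counting interval of 2330 to 33000. *FGF2* shares exon sequence with *NUDT6*, which is read from the opposite strand, and the strand setting of the counting was not given in the sources used here. It also overlaps AC021205.1 on the same strand, whose counts were not read. *NUDT6* had 4.37 to 6.17 CPM in all 12 libraries, including those with no *FGF2*.

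*FGF5* (ENSG00000138675, chromosome 4, 80266588 to 80291017) had another pattern among the lines. It was high in OVCAR8, at 193, 304 and 378 CPM in parental, *SIVA-WT* and *SIVA-D160N* cells, and in MDA-MB-231, at 167, 208 and 224 CPM. It was low in SKOV3, at 3.84, 3.68 and 4.53 CPM. HCC1954 had 2, 12 and 11 counts. In 3 of the 4 lines the parental library was the lowest, and in SKOV3 the *SIVA-WT* library was lowest by a small margin. An exon of *FGF5* overlaps *C4orf22* (now *CFAP299*) on the same strand, which had at most 58 counts in a library. *HGF* (ENSG00000019991, chromosome 7, 81699010 to 81770047) had 0 counts in each of the 12 libraries, so the ligand of MET was below the limit of 3 counts in all lines and conditions.

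**Figure D1:**
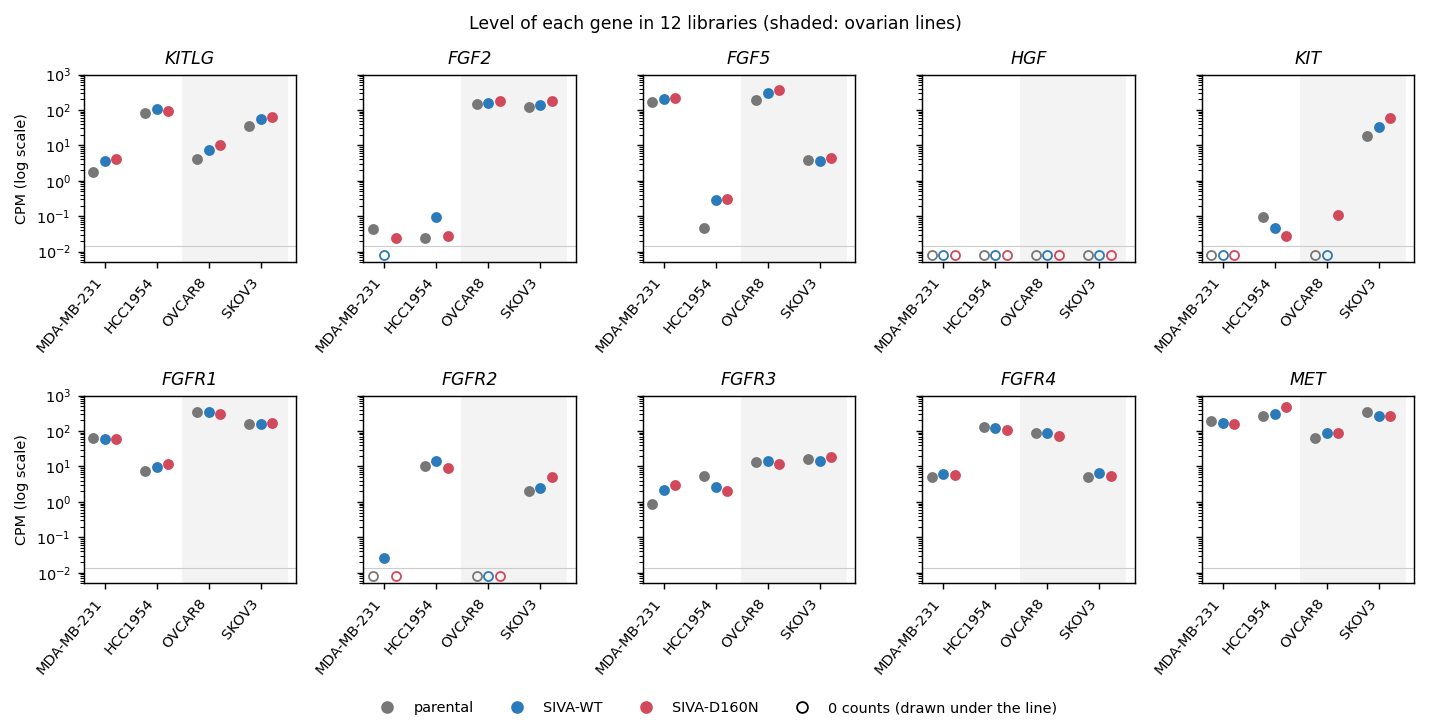
Level of each of the 10 genes in CPM on a log axis, 1 point per library, coloured by condition and placed by cell line, with open points for libraries with 0 counts. *KITLG* is higher in both transfectants than in parental cells of each line, *KIT* is seen in SKOV3 (18 to 58.2 CPM), and *HGF* has 0 counts throughout.

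*MET* (ENSG00000105976, chromosome 7, 116672196 to 116798377) was the receptor gene with high levels in every library. HCC1954 had 267, 311 and 474 CPM in parental, *SIVA-WT* and *SIVA-D160N* cells. SKOV3 had 352, 271 and 258 CPM. MDA-MB-231 had 188, 171 and 158 CPM, and OVCAR8 had 65.7, 90.1 and 90.1 CPM. The direction thus differed among lines, with the parental library highest in MDA-MB-231 and SKOV3 and lowest in HCC1954 and OVCAR8.

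*FGFR1* (ENSG00000077782) was highest in the ovarian lines. OVCAR8 had 354, 340 and 309 CPM and SKOV3 had 155, 157 and 166 CPM in parental, *SIVA-WT* and *SIVA-D160N* cells. MDA-MB-231 had 63.4, 57.9 and 60.6 CPM. HCC1954 was lowest, at 7.29, 9.96 and 11.7 CPM. *FGFR1* overlaps exons of *LETM2* on the opposite strand, which was also lowest in HCC1954, with 9 to 34 counts. ENSG00000255201 overlaps *FGFR1* on the opposite strand as well, and its counts were not read.

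*FGFR4* (ENSG00000160867, chromosome 5, 177086915 to 177098144) was high in HCC1954, at 129, 120 and 107 CPM, and in OVCAR8, at 88.9, 87.5 and 74.8 CPM. In MDA-MB-231 it had 5.11, 6.02 and 5.76 CPM, and in SKOV3 5.09, 6.61 and 5.44 CPM, so that the ranges of these lines overlapped. *FGFR3* (ENSG00000068078, chromosome 4, 1793293 to 1808867) was moderate in SKOV3, at 16.2, 14.6 and 18.4 CPM, and in OVCAR8, at 13.2, 14.7 and 11.9 CPM. It was low in HCC1954, at 5.47, 2.6 and 2 CPM, and in MDA-MB-231, at 0.863, 2.12 and 3.06 CPM. The breast lines went opposite ways, with the parental library the highest in HCC1954 and the lowest in MDA-MB-231.

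*FGFR2* (ENSG00000066468, chromosome 10, 121478330 to 121598458) was seen in HCC1954, at 10.4, 14.3 and 9.11 CPM, and in SKOV3, at 2.01, 2.49 and 4.95 CPM. OVCAR8 had no count and MDA-MB-231 had 1. HCC1954 was at least 430-fold and SKOV3 at least 119-fold higher than OVCAR8 at the limit of 3 counts over its 3 libraries.

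Levels of different genes were compared as CPM per kilobase of exon. On this scale *MET* led the receptors in HCC1954 (48.5 ± 15.1), SKOV3 (40.6 ± 7.02) and MDA-MB-231 (23.9 ± 2.07, SD, n = 3 libraries). In OVCAR8 *FGFR1* (19.4 ± 1.33) and *FGFR4* (17.4 ± 1.61) stood above *MET* (11.3 ± 1.95). *FGFR4* was the main FGF receptor gene of HCC1954 at 24.7 ± 2.27, against 0.561 ± 0.128 for *FGFR1*, 0.6 ± 0.144 for *FGFR2* and 0.692 ± 0.383 for *FGFR3*. In SKOV3 *FGFR1* led the FGF receptors at 9.26 ± 0.322, and *KIT* reached 3.24 ± 1.79. Among the ligands, *FGF5* led in OVCAR8 (48.9 ± 15.6) and MDA-MB-231 (33.5 ± 4.93), *FGF2* in SKOV3 (21.8 ± 4.85) and *KITLG* in HCC1954 (15 ± 2.32). The lengths are of all annotated exons together, 17201 bases for *FGFR1* and 18813 for *FGFR2* against 4848 for *FGFR3* and 4810 for *FGFR4*, which lowers the first 2 genes on this scale. The length of *KIT* was 11327 bases, so its value may be lowered in the same way.

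**Figure D2:**
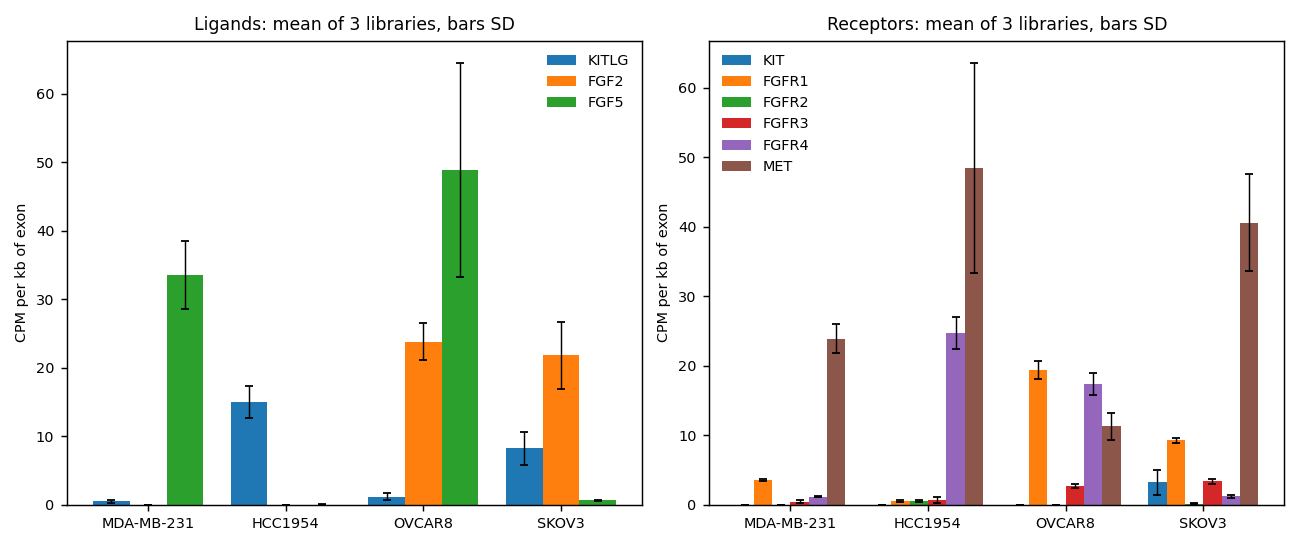
Mean level of the ligand genes (left) and receptor genes (right) in CPM per kilobase of exon in each line, with bars for the SD over the 3 libraries of the line. *MET* is the tallest receptor bar in 3 lines, and in OVCAR8 *FGFR1* and *FGFR4* are taller.

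The lines were then compared with edgeR's quasi-likelihood test, in which the 3 libraries of a line, 1 per condition, gave the spread. A gene was called where its adjusted p (FDR) was under 0.05 and its log2 fold change at least 1.5 in size. Of the 10 genes, 9 passed the filter on low counts, which *HGF* did not. In HCC1954 vs MDA-MB-231, 6 of 9 were called, against 33.0% of the 19204 genes tested. One of them was *KIT*, at 7 counts against 0, and no fold is given for it. In OVCAR8 vs MDA-MB-231, 4 of 9 were called (26.3% of all genes), and in SKOV3 vs MDA-MB-231, 6 of 9 (29.6%). In OVCAR8 vs HCC1954 and in SKOV3 vs HCC1954, 7 of 9 were called (34.3% and 32.8% of all genes). In SKOV3 vs OVCAR8, 6 of 9 were called (31.1%). *KIT* passed this filter through SKOV3 alone, the line in which it is high, so that nothing is read from its calls between lines. The counts of called genes include *KIT* in each comparison with SKOV3 as well. *FGF2* passed through OVCAR8 and SKOV3, and *FGFR2* through HCC1954 and SKOV3, again the lines in which they are high. The counts out of 9 are therefore not read as an excess over the shares of all genes. These tests describe the lines and not the tissues, as the libraries of a line are populations of 1 line.

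Neighbours in the order of levels were not always apart. *KITLG* was 1.89-fold higher in HCC1954 than in SKOV3 (log2 0.92 ± 0.18, SE, edgeR FDR 5.8e-04), 7.06-fold higher in SKOV3 than in OVCAR8 (FDR 1.5e-07) and 2.33-fold higher in OVCAR8 than in MDA-MB-231 (FDR 2.1e-04). *FGF2* in OVCAR8 and SKOV3 did not differ beyond the spread (log2 0.14 ± 0.14, edgeR FDR 0.382). *FGF5* was 1.41-fold higher in OVCAR8 than in MDA-MB-231 (edgeR FDR 0.0221), 49.7-fold higher in MDA-MB-231 than in SKOV3 (FDR 1.4e-09) and 19.2-fold higher in SKOV3 than in HCC1954, which had 25 counts in all (FDR 1.3e-07).

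Among the receptors, *MET* did not differ beyond the spread between HCC1954 and SKOV3 (log2 0.23 ± 0.21, edgeR FDR 0.348). It was 1.7-fold higher in SKOV3 than in MDA-MB-231 (FDR 0.00655) and 2.14-fold higher in MDA-MB-231 than in OVCAR8 (FDR 7.0e-04). *FGFR1* was 2.1-fold higher in OVCAR8 than in SKOV3 (edgeR FDR 3.1e-05), 2.61-fold higher in SKOV3 than in MDA-MB-231 (FDR 4.4e-06) and 6.38-fold higher in MDA-MB-231 than in HCC1954 (FDR 2.5e-08). *FGFR4* was 1.42-fold higher in HCC1954 than in OVCAR8 (edgeR FDR 0.00157) and 14.6-fold higher in OVCAR8 than in SKOV3 (FDR 7.3e-10). SKOV3 and MDA-MB-231 did not differ in *FGFR4* beyond the spread (log2 0.01, 95% interval -0.26 to 0.29). *FGFR3* was not apart between SKOV3 and OVCAR8 (edgeR FDR 0.499) or between HCC1954 and MDA-MB-231 (FDR 0.160), while OVCAR8 was 3.95-fold above HCC1954 (FDR 0.00109). *FGFR2* was 3.75-fold higher in HCC1954 than in SKOV3 (edgeR FDR 6.7e-04). No order is given for *KIT*, *FGF2* or *FGFR2* between lines with 7 or fewer counts.

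The effect of the transfections was tested over the 4 lines, with the line as a term of the model, so that each line served as a replicate (n = 4 per condition). *KIT* and *HGF* did not pass the filter by condition, which kept 8 of the 10 genes. In *SIVA-D160N* vs parental, 0 of 8 were called at the thresholds above, against 0.00581% of all 17211 genes, which is 1 gene. At an unadjusted p under 0.05 there were 3, all of them higher in *SIVA-D160N*, where 14.2% of all genes reached that level. DESeq2 and limma-voom called 0 of 8 as well. The study gives the same thresholds and a quasi-likelihood fit, without its model terms, and the genes it called include *KITLG*, *KIT* and *FGF5*. The cause of this difference was not tested. The median log2 fold change of the 8 was 0.3, against -0.01 over all genes.

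The 3 genes at an unadjusted edgeR p under 0.05 were the ligand genes. *KITLG* was 1.81-fold higher in *SIVA-D160N* than in parental cells, in 4 of 4 lines (log2 0.85 ± 0.16, SE, edgeR FDR 0.130). *FGF5* was 1.54-fold higher, in 4 of 4 lines (log2 0.62 ± 0.17, edgeR FDR 0.192). Its ratio in SKOV3 was 1.18, with a counting interval of 0.944 to 1.48 that includes 1, and HCC1954 had 11 counts against 2. *FGF2* was 1.37-fold higher (log2 0.46 ± 0.16, edgeR FDR 0.265), in both lines that express it, while the breast lines had 1 or 2 counts per library in these conditions. An exact sign-flip permutation test over the 4 lines gave p = 0.125, two-sided, for *KITLG* and for *FGF5*, which is the smallest p that 4 lines allow. Any gene with the same direction in all 4 lines gets this p, so it adds nothing to the counts of lines.

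*KITLG* did pass an FDR of 0.05 in some other fits, each time with a fold change under the size threshold. Its FDR was 0.00113 with DESeq2, where 1.98% of all genes were under 0.05. It was 1.7e-04 when all genes with at least 1 count were kept, where 1.59% were. Without HCC1954, in which the ratio was smallest and the parental library had no *SIVA1*, it was 0.0450, with 0.0277% of all genes under 0.05 and a log2 fold change of 1.12. Its FDR was between 0.154 and 0.273 without each of the other lines in turn, and 0.208 with limma-voom. With all genes with at least 1 count, *FGF5* had an FDR of 0.0103.

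*KIT* was tested only with wider filters. With the filter by cell line, *SIVA-D160N* vs parental gave a log2 fold change of 1.56 ± 0.45 (edgeR FDR 0.212). With all genes with at least 1 count it gave 1.58 ± 0.36 and an FDR of 0.00930, so that *KIT* was called there. DESeq2 gave 1.23 ± 1.22 (FDR 0.675). Nearly all counts of *KIT* were from SKOV3, so this is the difference between 2 libraries of SKOV3.

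Of the 5 receptors tested, 4 had log2 fold changes between -0.09 and 0.14. *FGFR1* (log2 0.10, 95% interval -0.16 to 0.37), *FGFR3* (0.00, -0.75 to 0.75), *FGFR4* (-0.09, -0.31 to 0.14) and *MET* (0.14, -0.26 to 0.54) were each higher in 2 lines and lower in 2, with edgeR FDRs of 0.736, 0.998, 0.741 and 0.763. *FGFR2* had a log2 fold change of 0.57 ± 0.40 (edgeR FDR 0.555). It was 2.46-fold higher in SKOV3, at 201 counts against 76, and 0.872-fold in HCC1954.

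Without HCC1954 the log2 fold changes in *SIVA-D160N* vs parental were 1.12 for *KITLG*, 0.57 for *FGF5* and 0.46 for *FGF2*. For the receptors they were -0.05 for *FGFR1*, 1.26 for *FGFR2*, 0.46 for *FGFR3*, -0.01 for *FGFR4* and -0.10 for *MET*. By edgeR the FDR was 0.0450 for *KITLG* and between 0.354 and 0.990 for the other 7. In *SIVA-WT* vs parental without HCC1954 they were 0.83 for *KITLG*, 0.34 for *FGF5* and 0.18 for *FGF2*, and for *FGFR1*, *FGFR2*, *FGFR3*, *FGFR4* and *MET* they were -0.06, 0.38, 0.27, 0.18 and -0.04. The signs of *FGFR1* and *MET* thus turned in both contrasts, and that of *FGFR3* in *SIVA-WT* vs parental.

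In *SIVA-WT* vs parental, 0 of 8 were called, as were 0% of all 17211 genes. By edgeR 2 were at an unadjusted p under 0.05, against 2.54% of all genes, and DESeq2 and limma-voom called 0 of 8. *KITLG* was 1.62-fold higher in *SIVA-WT*, in 4 of 4 lines (log2 0.70 ± 0.16, edgeR FDR 1.00), and its FDR was 0.0243 with all genes with at least 1 count, where 0.0458% of genes were under 0.05. *FGF5* was 1.31-fold higher, in 3 of 4 lines (log2 0.39 ± 0.17, edgeR FDR 1.00). *FGF2* had a log2 fold change of 0.21 ± 0.16. The contrasts of the 2 transfectants share the parental libraries, so their like direction is not counted as support. Both transfectants were directly compared in *SIVA-D160N* vs *SIVA-WT*, in which 0 of 8 were called, and 0% of all genes, with 0 of 8 and 6.88% of all genes at an unadjusted p under 0.05 by edgeR. DESeq2 and limma-voom called 0 of 8. There *KITLG* had a log2 fold change of 0.15 (95% interval -0.20 to 0.51). *FGF5* was higher in 4 of 4 lines (0.23, -0.14 to 0.61) and *FGFR4* was lower in 4 of 4 lines (-0.19, -0.41 to 0.04, edgeR FDR 0.762). For *FGF5*, the counting interval of the ratio included 1 in HCC1954 (0.45 to 2.79, at 11 counts against 12) and in SKOV3 (0.994 to 1.53). For *FGFR4* it included 1 in MDA-MB-231 (0.796 to 1.15, at 237 counts against 238). The exact sign-flip permutation p was 0.125, two-sided, for *FGF5* and for *FGFR4*. That value follows from the same direction in all 4 lines and adds nothing to it.

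Whether *SIVA-D160N* acted differently in ovarian and breast lines was tested as an interaction. Of the 8 genes, 0 were called at an FDR under 0.05, against 0.00581% of all genes. By edgeR, 1 was at an unadjusted p under 0.05, and limma-voom called 0 of 8. The gene at that p was *FGFR2*, whose log2 ratio was 1.48 ± 0.58 higher on the ovarian side (edgeR FDR 0.972). OVCAR8 had no count of it and MDA-MB-231 had 1 in all. This value thus sets SKOV3 against HCC1954 alone and does not compare the tissues.

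Within each line, 1 transfected library was set against 1 parental library, with no replicate check and no test. The ratio of CPM was taken with a prior count of 2, and a difference of at least 2-fold was counted over the 9 genes kept by the filter by line. In *SIVA-D160N* against parental, MDA-MB-231 had 2 genes higher and 0 lower (7.10% of all genes passed 2-fold in either direction), HCC1954 had 1 higher and 1 lower (11.3%), OVCAR8 had 2 higher and 0 lower (4.14%), and SKOV3 had 2 higher and 0 lower (9.41%). In *SIVA-WT* against parental, MDA-MB-231 had 1 gene higher (5.07%), HCC1954 had 1 higher and 1 lower (4.91%), OVCAR8 had 0 (3.82%) and SKOV3 had 0 (6.55%). In all, 11 of 72 ratios passed 2-fold, 9 of them higher. The shares of all genes were not split by direction, and both contrasts use the same parental libraries. These totals are therefore not read as an excess.

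*FGFR3* had the largest ratio among pairs of libraries with over 15 counts. It was 3.55-fold higher in *SIVA-D160N* than in parental MDA-MB-231, at 126 counts against 39 (counting interval 2.46 to 5.22). In HCC1954 it was 0.365-fold, at 70 counts against 228 (0.275 to 0.479). *KITLG* was 2.39-fold higher in MDA-MB-231 (1.82 to 3.16) and 2.51-fold higher in OVCAR8 (2.08 to 3.04). *KIT* at 3.24-fold and *FGFR2* at 2.46-fold (1.88 to 3.25) were the pair in SKOV3. *FGF5* in OVCAR8 was 1.96-fold higher (1.91 to 2.02), just under the limit, as was *KITLG* in *SIVA-WT* MDA-MB-231 at 2.02-fold, or 1.00 on the log2 scale with the prior count (log2 values past 1 counted). The other ratios past 2-fold were those of *FGFR3* in *SIVA-WT*, at 2.46-fold in MDA-MB-231 and 0.475-fold in HCC1954, and 3 on few counts, *FGF5* in HCC1954 with 11 and 12 counts against 2, and *KIT* in OVCAR8 with 4 counts against 0. The counting intervals leave out the spread between cultures, and a bulk library cannot separate more expressing cells from more RNA per cell.

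**Figure D3:**
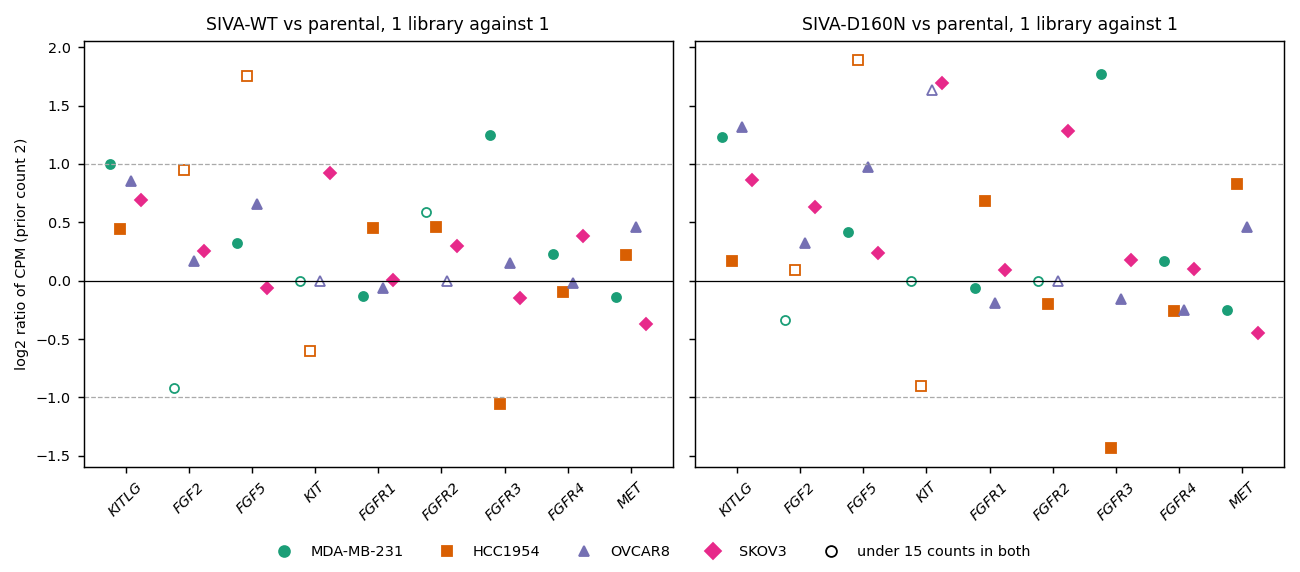
Log2 ratio of CPM of each gene between a transfected library and the parental library of its line, for *SIVA-WT* (left) and *SIVA-D160N* (right), 1 point per line, with dashed lines at 2-fold and open points where both libraries had under 15 counts. All 4 *KITLG* points lie above 0 in both panels, and the *FGFR3* points of MDA-MB-231 and HCC1954 lie on opposite sides.

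Other genes of these pathways were read from 6 lists with 65 genes, of which 44 could be tested between conditions. In each of the 3 contrasts 0 of them were called, by the edgeR test above. The lists were chosen with earlier results of these data known, so their counts of directions are not independent evidence. Both contrasts with parental cells also share the parental libraries. Among the 9 feedback inhibitors and ERK-induced targets (*SPRY1*, *SPRY2*, *SPRY4*, *SPRED1*, *SPRED2*, *IL17RD*, *DUSP6*, *ETV4* and *ETV5*), 9 of 9 had a fold change below 0 in *SIVA-D160N* vs parental, as had 51.7% of all genes. The median was -0.47 against -0.01 for all genes, and 5 were at an unadjusted p under 0.05 by edgeR, where 14.2% of all genes were. In *SIVA-WT* vs parental it was 9 of 9, against 51.6% of all genes, with a median of -0.34 against -0.01 and 1 at that level, where 2.54% of all genes were. In *SIVA-D160N* vs *SIVA-WT* it was 8 of 9, against 50.6% of all genes, with a median of -0.20 against 0 and 0 at that level, where 6.88% of all genes were.

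*SPRY4*, a Sprouty inhibitor of the RAS-ERK pathway, had the lowest p-value in this list and was chosen after its values were seen (log2 -0.86 ± 0.22, edgeR FDR 0.166). It had 351, 234 and 182 CPM in parental, *SIVA-WT* and *SIVA-D160N* cells of MDA-MB-231, 34.1, 24.9 and 18.7 CPM in HCC1954, 24, 23.4 and 26.4 CPM in OVCAR8, and 43.6, 21.7 and 12.8 CPM in SKOV3. *DUSP6*, a phosphatase that inactivates ERK, had 245, 201 and 146 CPM in MDA-MB-231, 69.9, 64 and 51.6 CPM in HCC1954, 5.78, 7.23 and 8.24 CPM in OVCAR8, and 24.6, 8.65 and 5.71 CPM in SKOV3 (log2 -0.74 ± 0.30, edgeR FDR 0.317). *SPRY1*, another Sprouty inhibitor, had a log2 fold change of -0.34 ± 0.35. *SPRY4* and *DUSP6* were thus lowest in *SIVA-D160N* in 3 lines and highest in *SIVA-D160N* in OVCAR8.

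OVCAR8 differed in direction from the other lines over this list. In *SIVA-D160N* against parental, 9 of 9 of its genes were lower in SKOV3 (median log2 ratio -1.43), 7 of 9 in MDA-MB-231 (-0.47), 7 of 9 in HCC1954 (-0.44) and 1 of 9 in OVCAR8 (0.15), while 49.5% to 53.8% of all genes were lower in each line. This difference between lines was not tested, since each line has 1 library per condition. Without SKOV3 the list's median in the fit was -0.27, with 7 of 9 lower, and without HCC1954 it was -0.57, with 8 of 9 lower.

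**Figure D4:**
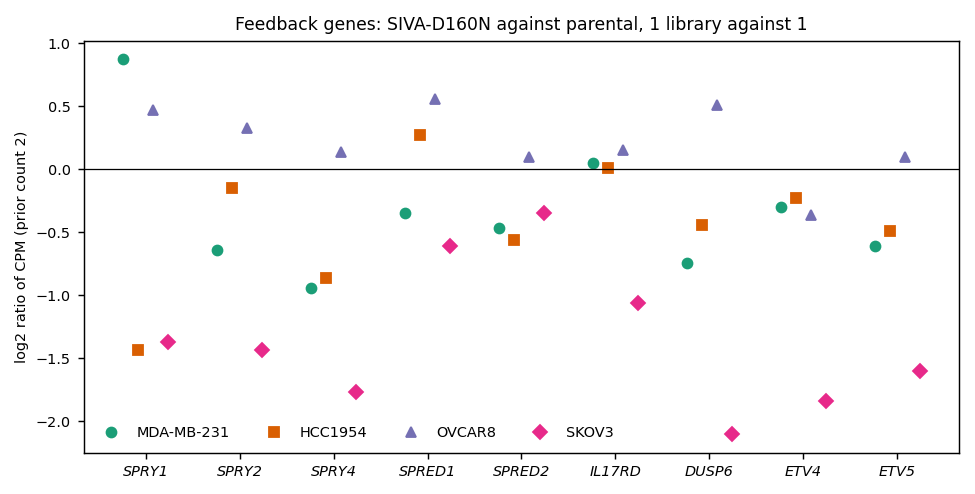
Log2 ratio of CPM between the *SIVA-D160N* and the parental library of each line for the 9 feedback inhibitors and ERK-induced targets, 1 point per line. All SKOV3 points lie below 0, and 8 of the 9 OVCAR8 points lie above it.

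The other 5 lists had medians between -0.24 and 0.03. Of 14 adaptors and proximal effectors, all tested, 8 were higher and 6 lower in *SIVA-D160N* vs parental (median 0.01). *SH2B3*, an adaptor that inhibits kinase signaling, had a log2 fold change of -0.36 ± 0.16 and *CBLB*, a ubiquitin ligase that marks receptors for removal, one of -0.30 ± 0.12 (edgeR FDR 0.341 and 0.321). Of 9 co-receptors and extracellular modulators, 7 were tested, 5 higher and 2 lower (median 0.02). Of these *FGFBP1*, whose product releases FGF2 from the matrix, had a log2 fold change of -1.43 ± 0.27 (edgeR FDR 0.128). It had 62.3, 27 and 17.8 CPM in parental, *SIVA-WT* and *SIVA-D160N* cells of SKOV3 and 24, 17.8 and 8.62 CPM in HCC1954. OVCAR8 had 12, 20 and 14 counts and MDA-MB-231 at most 1. The co-receptor *NRP1* had a log2 fold change of 0.01 ± 0.14.

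Of 8 genes of HGF activation, including the MET relative *MST1R*, 6 were tested, 1 higher and 5 lower (median -0.24). *ST14* and *SPINT1*, a protease that activates HGF and an inhibitor of such proteases, both stood far higher in HCC1954 than in the other lines. The line means of *SPINT1* were 327 CPM there and 0.984 CPM or less elsewhere, and those of *ST14* spanned 10.59 on the log2 scale. The genes had log2 fold changes of -0.39 ± 0.22 and -0.25 ± 0.25. Of 9 relatives of KIT and their ligands, 6 were tested, 3 higher and 3 lower (median 0.03), among them *PDGFB* at 0.00 ± 0.48 and *PDGFRB* at 0.30 ± 0.71. Of 16 further FGF ligands, 2 were tested, 1 higher and 1 lower (median -0.01). *FGF18* averaged 15.7 CPM in SKOV3 and 0.586 CPM or less in the other lines, and *FGF4* averaged 0.922 CPM in HCC1954 and had no count in the others.

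**Figure D5:**
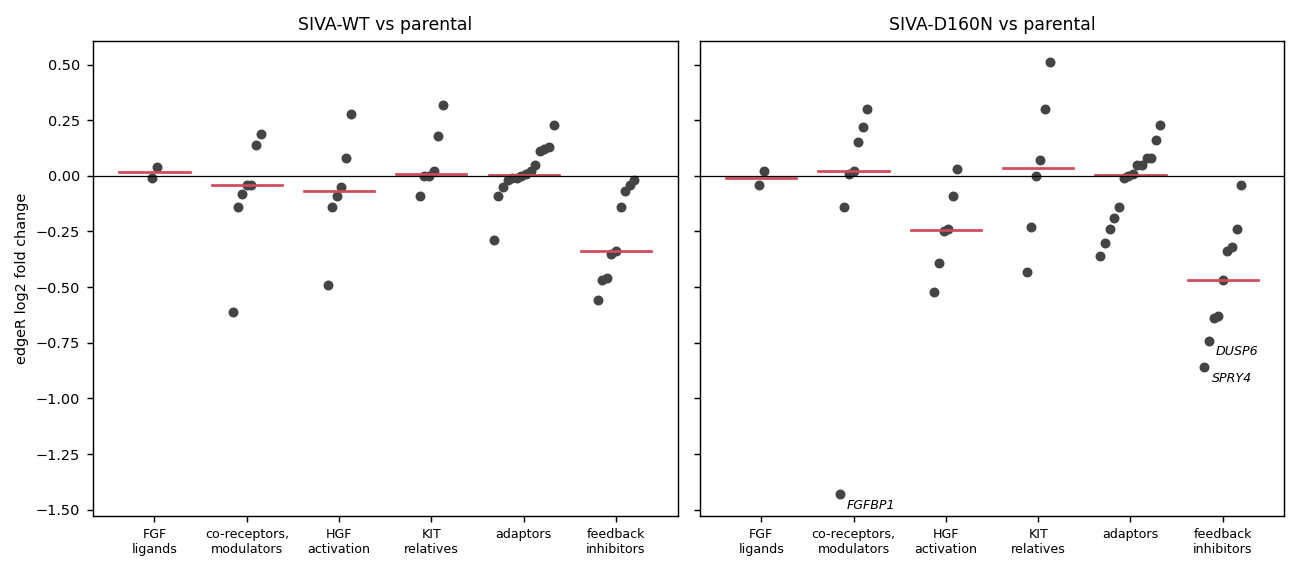
Log2 fold change from edgeR of each tested gene of the 6 pathway lists in *SIVA-WT* vs parental (left) and *SIVA-D160N* vs parental (right), 1 point per gene, with a red line at the median of each list. The feedback inhibitors lie below 0 in both panels, with medians of -0.34 and -0.47.

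The gene whose level was most like that of *MET* was *TGFA*, a ligand of the EGF receptor, with a Pearson correlation of log2 CPM of 0.989 over the 12 libraries. After each line's mean was removed the correlation was 0.96. *TGFA* had 27.4, 30.9 and 58.1 CPM in parental, *SIVA-WT* and *SIVA-D160N* HCC1954, and 31.4, 17.9 and 17.3 CPM in SKOV3. It had 10.9, 11.1 and 10 CPM in MDA-MB-231 and 2.82, 4.07 and 4.53 CPM in OVCAR8. *TGFA* was picked as the nearest of 19204 genes in these same libraries, so its correlations are not independent evidence. For *KITLG* the nearest genes were *SSH2* (0.988) and *LYN* (0.985), for *FGF5* *RAB34* (0.994) and *RIMS2* (0.993), and for *FGF2* *ZNF542P* and *TMEM246* (both 0.998). For *FGFR1* they were *DKK3* (0.995) and *NES* (0.99), for *FGFR3* *NAA40* and *AKAP5* (both 0.98), and for *FGFR4* *CDKN2B-AS1* (0.996) and *HS6ST2* (0.995). *KIT* was nearest to RP11-180C1.1 (0.994) and *POTEC* (0.99), *FGFR2* to *UGT1A6* (0.997) and RP11-328N19.1 (0.995), and *MET* also to *ZFX* (0.98). The 12 libraries fall into 4 lines, so these values mostly describe levels of 4 lines, and within lines they ran from -0.58 (*HS6ST2*) to 0.96 (*TGFA*).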

How the data were processed

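RNA sequencing of 12 libraries was used. The authors prepared stranded mRNA libraries and aligned paired-end reads to GRCh38. STAR 2.5.3a is named in the submitters' processing notes, and the annotation release is not given in the sources used here. The deposited values are gene counts, not normalized. A deposited CPM table was not used, since CPM were computed here from the counts with TMM-adjusted library sizes. All count columns were matched to a library by name.

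Counts were fitted with edgeR 4.0.16 in R 4.3.3 (glmQLFit and glmQLFTest, TMM, filterByExpr by condition for 17211 genes or by line for 19204), with terms for condition and cell line, and p-values were adjusted over all genes. Alternatives used DESeq2 1.42.0, limma-voom (limma 3.58.1), other filters and size factors, no block and libraries left out. The line is the shared source of 3 libraries and was the replicate block. Libraries of one line deviated together from the condition means (correlations 0.929 to 0.968, against -0.447 to -0.191 between lines). Taking out the mean over the lines pushes the correlations between lines below 0, so their negative sign is not read as a result. p-values measure the spread between these libraries.

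Exon lengths came from GENCODE v44 lifted to GRCh37 and gene positions from RefSeq GRCh38.p14. The fits were tested on simulated data. All 10 genes were named, with any list gene called between conditions, up to 2 genes per list with the widest range of line means and 2 genes of most similar pattern per gene. *SPRY4*, *NUDT6*, *LETM2* and *C4orf22* were chosen after their values were seen, as was *TGFA* for its printed levels. The genes and lists were chosen with earlier results of these data known. Python 3.11.15 and matplotlib 3.10.9 made the figures.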

Additional observations from a re-analysis of the deposited data

Results flagged for a closer look

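Each gene's 4 values per condition, and its 4 log2 ratios per contrast, were searched for a line far from the other 3 by Dixon's test. Of 54 sets 4 were past its 95% critical value, where 2.7 are given by chance.

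The *KIT* level of SKOV3 stood apart in *SIVA-WT*, at 5.09 log2 CPM (prior count 2) against -4.33 to -3.38 in the other lines, and in *SIVA-D160N*, at 5.86 against -4.33 to -2.69. *KIT* was searched only because it passed the filter by line through SKOV3, and the other lines had at most 4 counts per library. Both flags of *KIT* were thus fixed in advance, and the 4 sets are not read against the 2.7. The log2 ratio of *FGFR2* in *SIVA-D160N* against parental was 1.28 in SKOV3 and -0.20 to 0 in the other lines, 2 of which had at most 1 count in any library. Those 2 lines, MDA-MB-231 and OVCAR8, had no count in the libraries compared, which set their ratios to 0. This flag thus sets SKOV3 against HCC1954 alone. The log2 ratio of *MET* in *SIVA-D160N* against *SIVA-WT* was 0.61 in HCC1954 and -0.11 to 0 in the others.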

How the results depend on the processing

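The counts of called genes among the 10 kept their value or stayed within 1.5 times of it under the alternatives run, with 1 exception. With all genes with at least 1 count, *SIVA-D160N* vs parental called 1 of them, *KIT*, in place of 0, and 172 of all genes in place of 1. DESeq2 called 12 of all genes and limma-voom 5. With no replicate block 0 of the 10 and 0 of all genes were called.

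Directions that turned were of fold changes that were not called. With no replicate block, *SIVA-D160N* vs parental gave -0.08 for *FGFR1*. *SIVA-WT* vs parental gave -0.04 for *FGFR1*, -0.05 for *FGFR4* and -0.05 for *MET*. *SIVA-D160N* vs *SIVA-WT* gave -0.07 for *KITLG*, -0.05 for *FGFR1* and -0.26 for *FGFR2*. The other 2 were *FGFR2* in *SIVA-D160N* vs *SIVA-WT* with limma-voom (-0.16) and *FGFR4* in SKOV3 vs MDA-MB-231 with all genes (-0.02). With 1 line left out the ranges were -0.05 to 0.21 for *FGFR1*, -0.19 to 1.26 for *FGFR2* and -0.10 to 0.35 for *MET* in *SIVA-D160N* vs parental. They were -0.06 to 0.11 for *FGFR1*, -0.36 to 0.27 for *FGFR3* and -0.11 to 0.17 for *MET* in *SIVA-WT* vs parental, and -0.69 to 0.87 for *FGFR2*, -0.07 to 0.25 for *FGFR3* and -0.06 to 0.20 for *MET* in *SIVA-D160N* vs *SIVA-WT*. With 1 condition left out they were -0.19 to 1.43 for *FGFR3* in HCC1954 vs MDA-MB-231, -0.05 to 0.07 for *FGFR4* in SKOV3 vs MDA-MB-231 and -0.54 to 0.12 for *MET* in SKOV3 vs HCC1954. The causes were not tested. Depth limits *KIT*, *FGF2* and *FGFR2* in the lines with 7 or fewer counts, and the design of 1 library per line and condition limits each ratio within a line.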
